A study of Mus musculus with 12 samples.

Results

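The heat shock chaperone genes followed here are Hspa1a, Hspa1b, Hspa4, Hspa8, Hsp90aa1, Hsph1, Dnajb1, Hspb1, Hspe1 and Hsf1. Their members were all probe sets of an Affymetrix mouse expression array that the platform annotation assigns to exactly 1 of these 10 symbols. A probe set is a group of short probes, placed near the 3′ end of a transcript, that gives 1 value per array. The rule gave 25 probe sets of 9 genes out of 45101 probe sets on the array. Hsf1 has no probe set annotated to it alone, so its level is not given. Of the 25, 22 exceeded a log2 value of 4 in at least 3 of 12 arrays, as did 23044 probe sets of the whole array, and only these were tested.

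The 12 arrays measured RNA from cultured cerebellar granule cells, the small excitatory neurons of the cerebellum. All cultures came from lethargic mice on a 129/SvJ background, whose mutation disrupts Cacnb4, the gene for the calcium channel subunit β4. Cells were taken at postnatal day 7, kept in 5 mM KCl and exposed right after plating to a lentivirus for 12 h. They received the mitotic inhibitor Ara-C 24 h after plating, and RNA was collected after 9 days in vitro. The lentivirus carried the β4 splice variant β4a, β4b or β4e, or, as the control, eGFP, which encodes a fluorescent protein. Each of the 4 groups had 3 arrays, numbered 1 to 3. The letters before each insert's name in the labels are not explained there, and the share of cells that took up the virus is not given in the sources used here. Nothing in the labels says whether replicates were separate cultures, so p-values measure only the spread between these arrays. Each array is a bulk measurement, in which fewer cells of a type and less RNA per cell cannot be told apart.

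Heat shock proteins are molecular chaperones that bind unfolded proteins and help them fold, or hold them until they can be refolded or degraded. Under stress the transcription factor HSF1 assembles into trimers, enters the nucleus and binds heat shock elements, arrays of short inverted repeats of the unit GAA in the promoters of these genes. Some chaperones, such as Hspa8, are made at all times, and others, such as Hspa1a and Hspa1b, are the classical inducible genes. Neurons are known for a weak induction of the inducible HSP70 genes compared with glia.

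The promoters of the members are shown because heat shock elements are what this gene set is known to share. The search was for 2 neighbouring units in either arrangement, GAANNTTC or TTCNNGAA, in the 250 bases before the start of transcription in RefSeq (GRCm38.p6). Each motif reads the same on both strands, and overlapping matches were all counted. A RefSeq promoter was at hand for 7 of the 10 symbols: 5 held at least 1 match and 2, Dnajb1 and Hspa4, held none in this window. Of 32851 promoter windows of the same length over all genes, 12.8% held either motif, 6.69% GAANNTTC and 7.17% TTCNNGAA. Counted by gene, as the members were, 14.5% of 27025 genes held either motif. A match is a run of letters and was not tested for binding. The 150 bases just before the start are printed 5′ to 3′ along the gene, with the matched bases in capitals, for the 5 genes that had a match.
Hspe1, chr1:55087998-55088147, plus strand: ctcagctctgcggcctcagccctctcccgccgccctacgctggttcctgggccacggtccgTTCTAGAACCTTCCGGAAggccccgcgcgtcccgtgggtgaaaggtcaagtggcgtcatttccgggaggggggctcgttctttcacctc
Hspa1a, chr17:34972157-34972306, minus strand: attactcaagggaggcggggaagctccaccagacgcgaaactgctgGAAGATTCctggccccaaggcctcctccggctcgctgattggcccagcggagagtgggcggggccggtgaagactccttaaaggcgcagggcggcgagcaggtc
Hspa1b, chr17:34959239-34959388, minus strand: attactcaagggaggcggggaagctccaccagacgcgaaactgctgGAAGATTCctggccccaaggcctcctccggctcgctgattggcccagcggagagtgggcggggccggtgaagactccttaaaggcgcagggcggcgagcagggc
Hspb1, chr5:135887769-135887918, plus strand: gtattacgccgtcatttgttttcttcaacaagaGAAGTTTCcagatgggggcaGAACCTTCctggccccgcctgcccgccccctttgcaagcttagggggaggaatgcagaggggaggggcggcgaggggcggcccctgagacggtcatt
Hsph1, chr5:149636337-149636486, minus strand: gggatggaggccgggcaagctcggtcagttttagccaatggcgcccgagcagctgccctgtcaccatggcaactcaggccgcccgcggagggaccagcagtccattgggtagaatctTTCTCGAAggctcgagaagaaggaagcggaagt
The Hspe1 promoter had 3 overlapping matches that begin 89, 84 and 79 bases before the start, an unbroken run of 4 alternating units. A run of at least 3 units was present in 0.466% of all windows. In Hspa1a and Hspa1b the match began 104 bases before the start, in Hspb1 matches began at 117 and 97, and in Hsph1 the match began at 33 from the upstream start that RefSeq gives. Hspa1a and Hspa1b are neighbouring copies on chromosome 17. Their 250 bases differed at 3 positions, which is 98.8% identity, and the 150 printed bases differed at 1.

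Values were log2 intensities, on which a difference of 1 is a doubling, as the authors deposited them after GCRMA, a method that corrects background and normalizes arrays together. Levels are compared across arrays for each probe set, never between genes, because probe sets differ in how brightly they bind. For each gene the probe set with the highest mean over the 12 arrays, called the lead, is given in full. The plot of lead levels shows the general picture. For some genes, such as Hsph1 and Hspa1a, arrays that share a replicate number lay together. For others, such as Hspa1b and Hspa8, the numbers overlapped. For each of the 9 genes the arrays of every variant overlapped with those of eGFP.

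**Figure D1:**
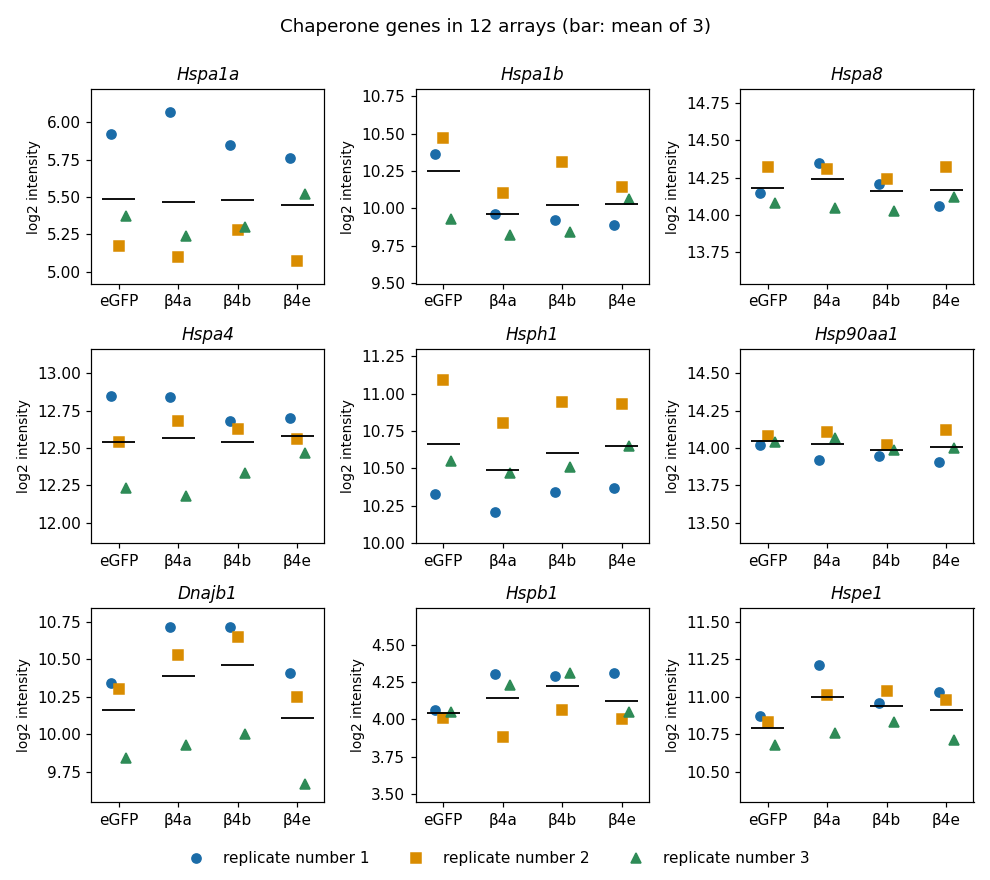
Log2 level of the lead probe set of each of the 9 measured genes (y axis, spanning the same 1.3 log2 units in every panel) in the 4 groups (x axis). Points are single arrays marked by replicate number and bars are means of 3 arrays; for Dnajb1 the arrays numbered 3 (9.67 to 10.00) lie below the other 8 (10.25 to 10.72) in every group.

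Among the HSP70 proteins, Hspa8 encodes HSC70, the constitutive form that drives folding, uncoating of clathrin vesicles and chaperone-mediated autophagy. Its lead probe set (1455789_x_at) averaged 14.18 ± 0.12 (SD, n = 3) in the eGFP arrays, 14.24 ± 0.16 in those of β4a, 14.16 ± 0.11 in those of β4b and 14.17 ± 0.14 in those of β4e. All 12 arrays lay between 14.03 and 14.35, close to the upper end of the scale, 15.02, where bright probe sets may respond less than proportionally. A pair of other bright probe sets ranged from 13.82 to 14.11 and from 13.32 to 13.73. A dim one varied far more, from 5.04 to 7.88, with number 1 (5.04 to 6.19) below numbers 2 and 3 (6.58 to 7.88) in every group.

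Hspa1b (lead 1427127_x_at), an inducible HSP70 gene, stood at 10.36, 10.47 and 9.93 in eGFP replicates 1, 2 and 3. It was 9.96, 10.10 and 9.82 with β4a, 9.92, 10.31 and 9.84 with β4b, and 9.89, 10.14 and 10.06 with β4e. The eGFP arrays numbered 1 and 2 were the 2 highest of all 12, while eGFP replicate 3 lay inside the range of the variants, so the groups overlapped. Within replicate number, β4a was lower than eGFP by 0.39, 0.37 and 0.11 (numbers 1, 2 and 3) and β4b by 0.44, 0.16 and 0.09. With β4e it was lower in numbers 1 and 2 and higher in number 3 (-0.47, -0.32 and 0.13). The mean differences from eGFP were -0.29, -0.23 and -0.22 for β4a, β4b and β4e, and -0.25 for the mean of the 3 variants (95% interval -0.575 to 0.0797 in the fit without the replicate number as a block, -0.467 to -0.0288 with it). Neither fit passed for that mean (limma adjusted p = 0.9997 and 0.241). The other Hspa1b probe sets also had lower means than eGFP with all 3 variants, with differences from -0.32 to -0.17. The values of eGFP replicate 1 weigh on these differences: in the blocked fit without it β4a, β4b and β4e differed from eGFP by -0.20, -0.14 and -0.13, and without eGFP replicate 3 by -0.40, -0.34 and -0.33, with none passing.

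The single Hspa1a probe set (1452388_at), for the copy of Hspa1b next to it, was far less variable between groups than between numbers. It was 5.92, 5.17 and 5.37 in eGFP replicates 1, 2 and 3 and 6.07, 5.10 and 5.24 with β4a. With β4b it was 5.85, 5.28 and 5.30, and with β4e 5.76, 5.07 and 5.52. In each group the array numbered 1 was the highest, and the group means lay between 5.45 and 5.49. The coding sequences of the 2 copies are nearly the same, so which copy contributes to each probe set cannot be told from these values. Identifiers that end in x_at or s_at, as the leads of Hspa1b, Hspa8 and Hspe1 do, mark probes that can bind related transcripts as well.

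Hspa4 and Hsph1 encode HSP110 proteins, relatives of HSP70 that act as its nucleotide exchange factors. The Hspa4 lead (1435194_at) averaged 12.54 ± 0.31 (SD, n = 3) in the eGFP arrays, and 12.57 ± 0.34, 12.54 ± 0.19 and 12.58 ± 0.12 in those of β4a, β4b and β4e. Of the other Hspa4 probe sets, one ranged from 10.16 to 11.10 and one from 8.96 to 10.81, the latter with number 1 at 10.67 or more in every group and the other 8 arrays at 10.00 or less. The last stood above 4 in 3 arrays only and is close to background. Hsph1 (lead 1425993_a_at) was 10.33, 11.09 and 10.55 in eGFP replicates 1, 2 and 3, 10.21, 10.80 and 10.47 with β4a, 10.34, 10.94 and 10.51 with β4b, and 10.37, 10.93 and 10.65 with β4e. The order of the numbers was 1, 3, 2 from low to high in every group, with no overlap between numbers over the 12 arrays. A second Hsph1 probe set ranged from 8.35 to 9.25 and was also highest in number 2 in every group.

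Hsp90aa1 encodes the inducible cytosolic HSP90, which matures kinases and steroid receptors and holds HSF1 inactive. Its lead (1438902_a_at) had the smallest range of the 9, from 13.91 to 14.12 over the 12 arrays, with group means of 14.05 (eGFP), 14.03 (β4a), 13.99 (β4b) and 14.01 (β4e). As for Hspa8, a probe set this bright may respond less than proportionally, so its small range need not reflect a steady transcript level. A pair of other bright probe sets ranged from 13.61 to 13.97 and from 13.04 to 13.43. Another pair stayed under 4 in every array and was not tested.

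Dnajb1 encodes an HSP40 J protein that hands substrates to HSP70 and stimulates its ATPase. Its lead (1416755_at) stood at 10.34, 10.30 and 9.84 in eGFP replicates 1, 2 and 3, at 10.72, 10.53 and 9.93 with β4a, at 10.72, 10.65 and 10.00 with β4b and at 10.41, 10.25 and 9.67 with β4e. Within replicate number β4a was above eGFP by 0.39, 0.23 and 0.09, β4b by 0.38, 0.35 and 0.16, and β4e differed by 0.07, -0.05 and -0.17. Both β4a and β4b were thus higher than eGFP in each of the 3 numbers, while the groups as a whole overlapped because number 3 was low throughout. The second Dnajb1 probe set (1416756_at) was 5.34, 5.48 and 5.11 with eGFP, 5.81, 5.57 and 5.59 with β4a, 6.03, 5.69 and 5.86 with β4b and 5.35, 5.63 and 5.36 with β4e. This was the one member probe set whose groups did not overlap: all β4a and all β4b arrays were above all eGFP arrays, while the β4e arrays overlapped with eGFP.

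Hspb1 encodes HSP27, a small heat shock protein that holds unfolded proteins without ATP. Its lead (1422943_a_at) was near the filter level of 4, with 3.88 to 4.31 over the 12 arrays and 11 of them above 4, and its second probe set stayed below 4 in all. At such levels a difference is little more than a bound on what could be seen. Hspe1 encodes HSP10, the lid of the mitochondrial HSP60 chamber. Its lead (1450668_s_at) was 10.87, 10.83 and 10.68 in eGFP replicates 1, 2 and 3, 11.21, 11.01 and 10.76 with β4a, 10.96, 11.04 and 10.83 with β4b, and 11.03, 10.98 and 10.71 with β4e. Hspe1 was the one lead above eGFP in each of the 3 numbers with every variant, by 0.04 to 0.35, although the groups overlapped. Its second probe set was higher in each number with β4a (by 0.10 to 0.25) and β4b (by 0.01 to 0.22), and with β4e it differed by -0.00, 0.23 and 0.18 (numbers 1, 2 and 3).

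None of the 22 tested member probe sets passed against eGFP with any variant, with limma on all 23044 probe sets and a Benjamini-Hochberg adjusted p under 0.05. Over the whole array 0% of the probe sets passed in these comparisons, for the mean of the 3 variants, for each pair of variants and for any difference among the 4 groups, so the members' count equals the background. At an unadjusted p under 0.05, 1 member passed with β4a, 1 with β4b, 0 with β4e and 1 for the mean of the variants, against 363, 607, 83 and 467 of all probe sets. With the replicate number as a block, again 0 members passed in any of these, with 4, 2, 0 and 3 members at an unadjusted p under 0.05, beside 15.3%, 19.3%, 5.54% and 17.5% of all probe sets. The 2 members with β4b were both probe sets of Dnajb1. In the blocked fit 0.013% of all probe sets were called with β4a, 0.013% with β4b, 0% with β4e and 0.0217% for the mean of the variants. The numbers of members above and below eGFP were 14 and 8 with β4a, 14 and 8 with β4b, and 9 and 13 with β4e. The median difference over the 9 leads was 0.03 with β4a, -0.01 with β4b and -0.02 with β4e, beside 0.02, 0.03 and 0.01 over all tested probe sets.

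The difference with the smallest p among the members was that of the second Dnajb1 probe set with β4b, 0.55 (1.46-fold, unadjusted p = 0.00453, limma adjusted p = 0.9999). With the block its 95% interval was 0.252 to 0.848 and its adjusted p 0.0998. The Dnajb1 lead differed by 0.23 with β4a (95% interval -0.405 to 0.875 without the block, 0.0357 to 0.434 with it, limma adjusted p = 0.9999 and 0.272). With β4b it differed by 0.30 (-0.343 to 0.936 without the block, 0.0973 to 0.496 with it, limma adjusted p = 0.9999 and 0.140) and with β4e by -0.05 (-0.690 to 0.589, and -0.250 to 0.149 with the block). Hspe1 differed by 0.21 with β4a, 0.15 with β4b and 0.12 with β4e (limma adjusted p with the block 0.325, 0.403 and 0.920), and by 0.16 for the mean of the 3 variants (-0.0111 to 0.326 with the block). Without the block the Dnajb1 intervals still held differences as large as 0.875 with β4a and 0.936 with β4b.

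**Figure D2:**
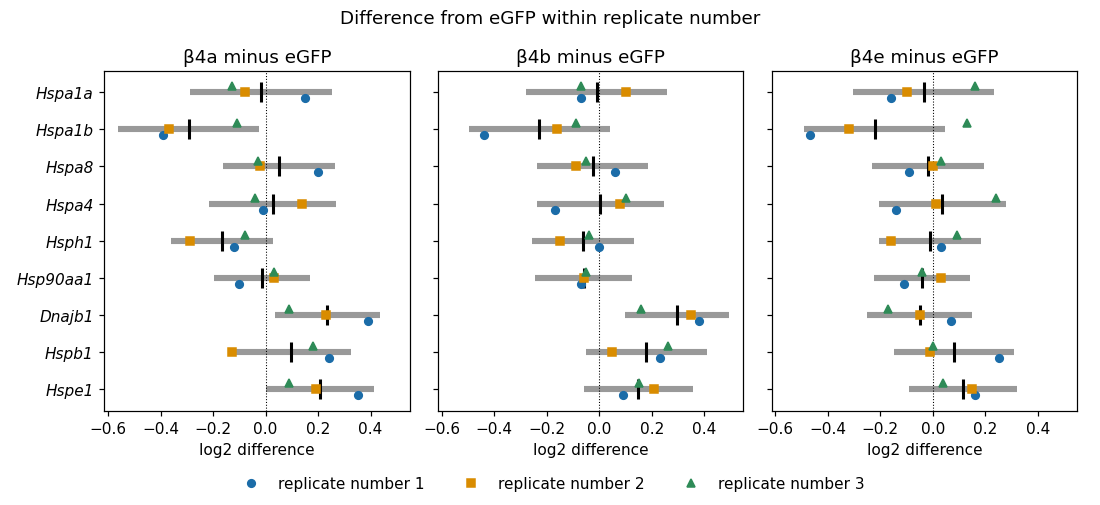
Variant minus eGFP on the log2 scale (x axis) for the 9 lead probe sets (y axis), 1 panel per variant. Points are the differences within replicate numbers 1, 2 and 3, black ticks their mean and grey bars the 95% interval of the fit with replicate number as a block; Hspe1 lies to the right of 0 in every number of every panel, and Dnajb1 does so with β4a and β4b.

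Counted within replicate number, 5 of the 22 members were higher than eGFP in each of the 3 numbers with β4a, 5 with β4b and 3 with β4e. Over all tested probe sets these shares were 19.1%, 22.9% and 15.3%. Lower in each number were 4, 4 and 1 members, beside 16.4%, 18.1% and 12.4% of all probe sets. Groups without overlap and higher with the variant were found for 1 member with β4a, 1 with β4b and 0 with β4e, beside 2.87%, 3.64% and 1.4% of all. Groups without overlap and lower were found for no member, beside 1.59%, 2% and 0.759%. These member counts are near the background shares. They count probe sets, and several can belong to 1 gene. Of the 9 leads, 1 per gene, 2, 3 and 1 were higher in each number with β4a, β4b and β4e. Lower in each number were 2, 2 and 0 leads, and 0 leads had groups without overlap. The 3 comparisons share the same 3 eGFP arrays, so a high or low eGFP array moves all of them.

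The variants were also compared with each other. The Dnajb1 lead was higher with β4a than with β4e by 0.29 (0.0862 to 0.485 with the block, limma adjusted p = 0.759) and higher with β4b than with β4e by 0.35 (0.148 to 0.546 with the block, limma adjusted p = 0.663). Between β4a and β4b the difference was -0.06 (-0.261 to 0.138 with the block). Of the 22 members, 0 passed in any of the 3 pairs by limma with or without the block, with 0, 0 and 1 at an unadjusted p under 0.05 for β4a against β4b, β4a against β4e and β4b against β4e, and 0, 1 and 2 with the block. The shares of all probe sets at that p were 0.243%, 0.664% and 0.759% for these pairs, and 2.69%, 6.33% and 7.11% with the block. The F test for any difference among the 4 groups called 0 members, with 1 at an unadjusted p under 0.05 and 2 with the block, beside 0.759% and 11.7% of all probe sets.

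The replicate numbers separated most members more than the inserts did. The numbers are shared by all 4 groups, and the labels do not say whether a number marks a preparation, a day or a hybridization. In a fit with group and number as terms, 12 of the 22 members differed between numbers (limma F test, adjusted p under 0.05), beside 65.2% of all tested probe sets. Number accounted for a median of 64.7% of the sum of squares of a member probe set and group for 11.8%, beside 64.2% and 12.0% over all probe sets. The second Dnajb1 probe set was an exception, with 6.87% between numbers and 70.7% between groups. By pair of numbers, 7 members differed between 2 and 1, 9 between 3 and 1 and 7 between 3 and 2, beside 53.2%, 48.2% and 32.3% of all tested probe sets.

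The members did not all move one way between the numbers. The Dnajb1 lead was lower in number 3 than in number 1 by 0.69 (limma adjusted p = 0.000120) and lower than in number 2 by 0.57 (adjusted p = 0.000745), in 4 of 4 groups each. The second Dnajb1 probe set did not pass, with differences of -0.15 and -0.11 (limma adjusted p = 0.296 and 0.478). Hsph1 was higher in number 2 than in number 1 by 0.63 (limma adjusted p = 0.000126) and lower in number 3 than in number 2 by 0.40 (adjusted p = 0.00404), again in 4 of 4 groups. Hspa1a was lower in number 2 and in number 3 than in number 1, by 0.75 and 0.54 (limma adjusted p = 0.000304 and 0.00232). Hspa4 was lower in number 3 than in number 1 by 0.46 (limma adjusted p = 0.00308). These calls of the leads were kept when any 1 of the 12 arrays was left out.

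Smaller differences between numbers also passed, and each was lost when certain single arrays were left out. Hspe1 was lower in number 3 than in number 1 by 0.27 (limma adjusted p = 0.0187). That call was lost without β4a replicate 1, β4a replicate 3 or β4e replicate 3, with differences from -0.32 to -0.22 over the 12 arrays left out in turn. Hspa1b was lower in number 3 than in number 2 by 0.34 (limma adjusted p = 0.0316), lost in 6 of the 12 (replicate 2 or 3 of eGFP, β4a or β4b; -0.43 to -0.26). The Hspa4 lead was lower in number 3 than in number 2 by 0.30 (limma adjusted p = 0.0359). That call was lost in 7 of the 12 (the same arrays and β4e replicate 2), with differences from -0.37 to -0.23. Of the other bright Hspa4 probe sets, 1416146_at had means of 10.86 and 10.24 in numbers 2 and 3. The means of 1416147_at were 9.56 and 9.57. Hsph1 was higher in number 3 than in number 1 by 0.23 (limma adjusted p = 0.0282), lost in 7 (eGFP replicate 1, and replicate 1 or 3 of β4a, β4b or β4e; 0.21 to 0.26). Hspb1, near background, was lower in number 2 than in number 1 by 0.25 (limma adjusted p = 0.0356), lost in 6 (replicate 1 or 2 of β4a, β4b or β4e; -0.31 to -0.20). The leads of Hspb1, Hspa8 and Hsp90aa1 did not pass the F test over the 3 numbers (limma adjusted p = 0.0685, 0.0870 and 0.266).

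**Figure D3:**
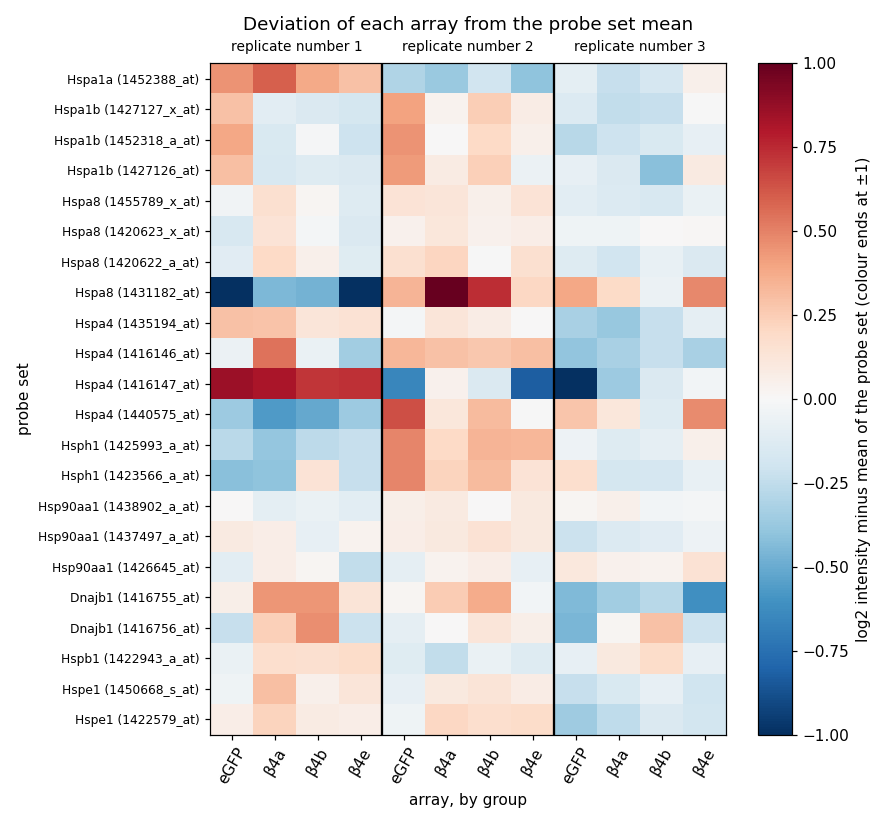
Deviation of each of the 22 tested member probe sets (rows) from its mean over 12 arrays, as a log2 difference (colour), with arrays (columns) ordered by replicate number and then by group. Blocks of 1 colour across the 4 arrays of a number are seen for most genes, such as Hspa1a, high in number 1 (5.76 to 6.07 against 5.07 to 5.52), and Hsph1, high in number 2 (10.80 to 11.09 against 10.21 to 10.65).

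Other measures also varied with the replicate numbers or the groups, and their part in the members' differences was not tested. The level summed over interneuron markers (5 of 7 past the filter) was 13.72 to 13.94 on the log2 scale in number 1, 12.51 to 12.85 in number 2 and 13.05 to 13.48 in number 3. Oligodendrocyte lineage markers summed to 14.83 to 14.89, 14.52 to 14.67 and 14.20 to 14.44 in numbers 1, 2 and 3. The 3′ minus 5′ signal of the Gapdh control probe sets, a measure of RNA integrity, was 0.09 to 0.40, 0.05 to 0.12 and -0.05 to 0.07. For Gapdh number 2 overlapped with both other numbers, and number 1 lay above number 3. For Actb all 3 numbers overlapped, at 0.82 to 1.09, 0.85 to 1.02 and 0.85 to 0.96. Granule cell markers, all 12 past the filter, summed to 16.73 to 16.80 with eGFP, 16.63 to 16.68 with β4a, 16.63 to 16.71 with β4b and 16.68 to 16.79 with β4e. The β4a and β4b arrays lay below those of eGFP, and 10, 9 and 6 of the 12 genes were below eGFP with β4a, β4b and β4e, with 0 passing. Astrocyte and Bergmann glia markers (12 of 12 past the filter) summed to 14.09 to 14.94 with eGFP, 14.52 to 15.32 with β4a, 14.69 to 15.61 with β4b and 14.76 to 14.88 with β4e. By group mean their 12 genes were all higher than eGFP with each variant, with medians of 0.39, 0.62 and 0.42 and 0 passing. The sums did not keep this direction within number. In number 1 (14.66 to 14.94) the eGFP array had the highest sum. In numbers 2 (14.09 to 14.83) and 3 (14.30 to 15.61) it had the lowest. Of microglial markers 8 of 12 passed the filter (Aif1, Itgam, P2ry12 and Tmem119 did not), and of 10 endothelial and pericyte markers 0 did. Whether the glial or the granule cell level has a part in the differences of Dnajb1, Hspe1 or Hspa1b was not tested.

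How the members varied together was described after the mean of each replicate number was subtracted, over 12 arrays that share 3 number means and their normalization. The 3 Hspa1b probe sets correlated at 0.772 to 0.913 with each other, the 2 Hspe1 probe sets at 0.797 and the 2 Dnajb1 probe sets at 0.71, while the 3 tested Hsp90aa1 probe sets lay between -0.191 and 0.0306. Between genes, the pairs of leads ran from -0.686 (Hsph1 with Hspe1) to 0.661 (Hspa1a with Hspa4). Among the others, Dnajb1 and Hspe1 correlated at 0.63, Hspa1b with Hsph1 at 0.59, Hspa1b with Hspe1 at -0.627 and Hsph1 with Dnajb1 at -0.592. The neighbouring copies Hspa1a and Hspa1b correlated at 0.495, and at -0.178 without subtracting number means. Non-member genes close to the Hspa1b and Hspa8 leads were picked as the highest r among all tested probe sets with 1 symbol. Such a choice raises the r values by itself, and coexpression was not tested. With number means subtracted, the 5 non-member genes closest to the Hspa1b lead were Ints6 (0.927), Nufip2 (0.922), Spire1 (0.915), Nsf (0.911) and Synj2bp (0.908). Those closest to Hspa8 were Hnrnph2 (0.98), Psmb7 (0.968), Ube2d1 (0.962), Ywhaz (0.961) and Pja1 (0.96). Without subtracting number means, Hspa1b was closest to Bace1 (0.935), Tshz1 (0.915), Pdcd6ip (0.876), Limk1 (0.87) and Leo1 (0.867), and Hspa8 to Zfp131 (0.978), Ube2d1 (0.975), Nmd3 (0.969), Rnf11 (0.962) and Mir22hg (0.962). Ube2d1, a ubiquitin-conjugating enzyme, was the one gene among the 5 closest to Hspa8 by both measures.

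The other genes of the chaperone network were counted by list, with 1 probe set per gene, and 0 genes of any list passed against eGFP with any variant by limma, with or without the block. Without the block, and with no adjustment, a p under 0.05 was reached by 1 mitochondrial gene and 1 endoplasmic reticulum gene with β4b and by 4 immediate early genes with β4a, and by 0 others. With the block such a p was reached by 0 and 2 of 22 cytosolic chaperones with β4a and β4b, by 2 and 2 of 19 cochaperones, by 1 and 4 of 9 mitochondrial genes, by 7 and 8 of 18 endoplasmic reticulum genes and by 7 and 0 of 12 immediate early genes. With β4e it was reached by 2 endoplasmic reticulum genes and by none of the other lists. Over all probe sets the shares with β4a, β4b and β4e were 1.58%, 2.63% and 0.36% without the block and 15.3%, 19.3% and 5.54% with it. Of 22 other cytosolic chaperones, 18, 16 and 12 were above eGFP with β4a, β4b and β4e, with medians of 0.08, 0.07 and 0.00. Cryab, a small heat shock protein of glia and muscle, was 9.72 ± 0.30 with β4b against 9.01 ± 0.85 with eGFP (SD, n = 3 each), and Hspb8, its relative in chaperone-assisted autophagy, 8.30 ± 0.65 against 7.16 ± 1.54. Dnajb2, a neuronal J protein, was 7.22 ± 0.54 with β4a against 6.88 ± 0.06. With β4b, Cryab differed from eGFP by 0.13, 0.79 and 1.22 in numbers 1, 2 and 3, and Hspb8 by -0.30, 1.44 and 2.27. With β4a, Dnajb2 differed by 0.71, 0.54 and -0.22, so Hspb8 and Dnajb2 did not keep 1 direction.

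Of 19 cochaperones and regulators of HSP70, HSP90 and HSF1, 12, 12 and 13 were above eGFP (medians 0.08, 0.05 and 0.03). Bag3, a HSF1 target that links HSP70 to small heat shock proteins, was 5.59 ± 0.56 with β4b against 5.01 ± 0.87, and Stub1, the ubiquitin ligase of HSP70 clients, 11.20 ± 0.02 against 11.34 ± 0.11. Bag2, an inhibitor of Stub1, was 4.46 ± 0.72 with β4a against 3.96 ± 0.24 and close to background. With β4b, Bag3 differed from eGFP by -0.09, 0.70 and 1.10 in numbers 1, 2 and 3, and Stub1 by -0.11, -0.25 and -0.04. With β4a, Bag2 differed by 0.94, 0.71 and -0.17, so Bag3 and Bag2 did not keep 1 direction. Of 9 mitochondrial chaperones other than Hspe1, 8, 7 and 6 were above eGFP (medians 0.11, 0.25 and 0.10). Trap1, the mitochondrial HSP90, was 8.37 ± 0.20 with β4b against 7.85 ± 0.22 (limma adjusted p = 0.9999, and 0.126 with the block). Grpel1, the exchange factor of mitochondrial HSP70, was 9.86 ± 0.24 against 9.58 ± 0.13, and Hscb, a J protein of iron-sulfur cluster assembly, 5.15 ± 0.44 against 4.82 ± 0.34. Between replicate numbers, all 9 of these genes had lower means in number 3 than in number 2, and 6 of them passed, beside 32.3% of all tested probe sets in that comparison, while Hspe1 differed by -0.22 (limma adjusted p = 0.0618).

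Of 18 endoplasmic reticulum chaperones and unfolded protein response genes, 18, 16 and 14 were above eGFP (medians 0.23, 0.24 and 0.11). Calr, a calcium-binding chaperone, was 12.38 ± 0.14 with β4b against 12.05 ± 0.10 (limma adjusted p = 0.9999, and 0.132 with the block). Hspa5, the HSP70 of this compartment, was 12.95 ± 0.20 with β4a against 12.62 ± 0.21, and Dnajc3, its J protein partner, 10.65 ± 0.29 against 10.29 ± 0.22. The 12 immediate early genes, which neurons switch on with activity or stress, were all above eGFP with β4a and β4b (medians 1.93 and 1.19), and 4 of 12 with β4e (median -0.06). Their levels differed mainly in numbers 1 and 2: Fosb was above eGFP with β4a by 7.29, 3.76 and 0.07 in numbers 1, 2 and 3, Atf3 by 2.91, 2.35 and 0.15 and Egr4 by 2.46, 1.81 and 0.03. In the same arrays the Dnajb1 lead was higher by 0.39, 0.23 and 0.09 and its second probe set by 0.46, 0.09 and 0.47.

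**Figure D4:**
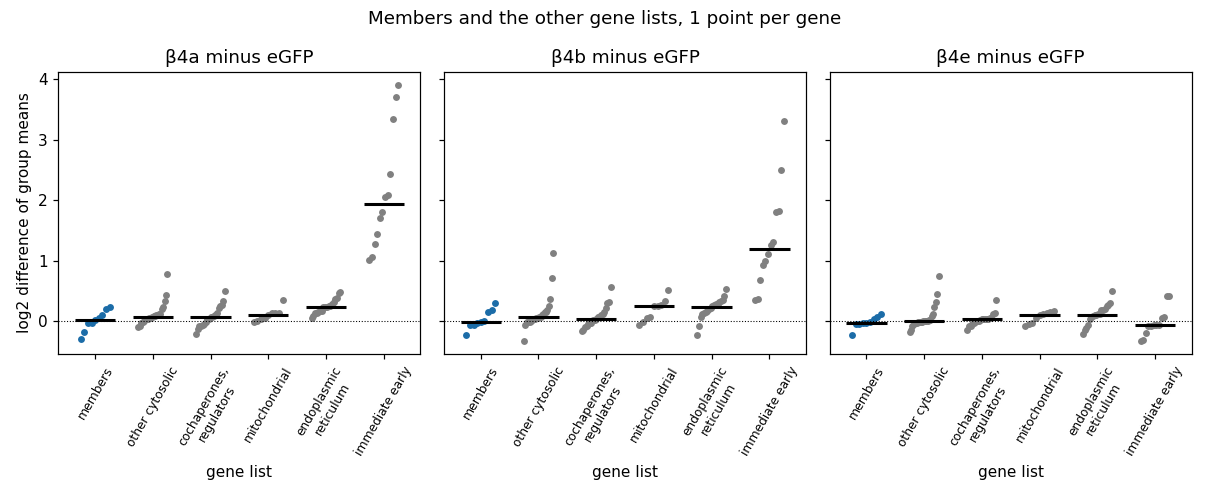
Variant minus eGFP on the log2 scale (y axis), as the difference of group means, for the members' lead probe sets and for the 5 lists of other genes (x axis), 1 panel per variant. Each point is a gene and each bar the median of its list; the medians of the members (0.03, -0.01 and -0.02 with β4a, β4b and β4e) lie below those of the endoplasmic reticulum list (0.23, 0.24 and 0.11).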

How the data were processed

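RNA of 12 samples was hybridised to 1-colour Affymetrix 3′ arrays, 500 ng per sample, per the labels. The authors deposited 1 table of log2 values, made with GCRMA per the submitters' processing notes. Its version and settings are not given in the sources used here. GCRMA models background from probe sequence, so values near 4 carry little information, and it normalizes arrays together. The array medians were 3.84 to 3.90. Probe sets were named from the platform annotation: 34945 had 1 symbol, 932 several and 9160 none. The number of arrays limits the precision.

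Probe sets with a value above 4 in at least 3 of the 12 arrays were tested (control probe sets left out). The main model had 4 group means, fitted by lmFit and eBayes of limma 3.58.1, run in R 4.3.3, with two-sided tests, with Benjamini-Hochberg adjustment over 23044 probe sets, a threshold of 0.05 and 95% intervals. The fit was tested on simulated data. Replicate number as a block was the alternative. Arrays of 1 number deviated together from their group means (r from 0.699 to 0.884 in 18 pairs, and from -0.741 to 0.146 in 36 pairs of other numbers), so the numbers were taken to pair the arrays. This pairing comes from the values, since the labels do not state it. Only the blocked fit uses it. The main fit counts the spread between numbers, 76.0% of the total sum of squares over all tested probe sets, as error. Other alternatives were no filter, a stricter filter, array medians set equal, another quantile normalization, an intensity trend, array weights, the mean of a gene's probe sets, and each array left out in turn.

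The members and the lists were chosen with earlier results of these data known. Named genes were the members, up to 3 genes of each list with the smallest unadjusted p against eGFP, and the 5 genes most like Hspa1b and Hspa8.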

Additional observations from a re-analysis of the deposited data

Results flagged for a closer look

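Within each replicate number the 4 arrays of the 22 tested member probe sets were searched for an array far from the other 3, by Dixon's test. Of 66 sets of 4 arrays, 5 had such an array. Chance gives about 1 in 20 sets. The 66 sets were not independent, because several probe sets belong to the same gene. The search was run on the members only, so no share over all tested probe sets is given. Whether 5 exceeds chance was not tested, and the flagged arrays are listed only as values to check.

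For Hspa1b, eGFP replicate 1 stood above the other arrays of number 1 in 2 probe sets, at 10.36 against 9.89 to 9.96 in the lead and at 9.11 against 8.65 to 8.68 in another. For Hspb1, eGFP replicate 1 stood at 4.06, below the 4.29 to 4.31 of the others and close to background. For the second Hspe1 probe set, β4a replicate 1 was high in number 1, at 9.90 against 9.74 to 9.76. In number 2, eGFP replicate 2 was low for the same probe set, at 9.63 against 9.84 to 9.88.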

How the results depend on the processing

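The count of member probe sets that passed stayed at 0 against eGFP and between variants, and within 1.5 times of 12 between replicate numbers, in all 273 alternative values of 17 such counts. With the replicate block the whole array had 3 calls with β4a, 3 with β4b and 5 for the mean of the variants, against 0 without it, and no member call changed. Without eGFP replicate 1, the blocked count with β4b was 61. Between replicate numbers 9881 probe sets passed under the stricter filter, which admits fewer probe sets to the test, against 15027.

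Of 1419 alternative values for single genes, 1308 kept their direction and side of the threshold, 71 changed sign (in differences that had not passed), 31 no longer passed and 9 newly passed, and the cause was not tested. Those that newly passed were Hspa8 and Hspe1 in number 3 against 2 and Hsp90aa1 in number 2 against 1. With an intensity trend their limma adjusted p was 0.00753, 0.0333 and 0.00845.

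With array weights, β4e against eGFP became 0.0126 for Hspa1a, 0.0196 for Hspa8 and 0.0441 for Hsph1, β4a against eGFP 0.0153 for Hsp90aa1, and β4a against β4b 0.0482 for Dnajb1. After another quantile normalization Hspa4 was -0.00303 with β4b and Hspa8 0.00252 with β4e. As the mean of all probe sets, Hspa8 was 0.105 with β4b and 0.0479 with β4e, Hsp90aa1 0.0209 with β4a and Dnajb1 0.0426 with β4e.

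Leaving out each array in turn also turned signs. Against eGFP, with the range of the blocked fit second where signs turned there too, Hspa1a ranged from -0.318 to 0.20 with β4a (-0.132 to 0.0587), -0.198 to 0.208 with β4b (-0.0872 to 0.0324) and -0.192 to 0.182 with β4e (-0.158 to 0.0472). Hspa4 ranged from -0.128 to 0.220 with β4a (-0.0184 to 0.114), -0.151 to 0.158 with β4b (-0.0340 to 0.0700) and -0.120 to 0.190 with β4e (-0.0613 to 0.101). Hspa8 ranged from -0.00517 to 0.142 with β4a (-0.0204 to 0.0959), -0.0754 to 0.0432 with β4b and -0.0963 to 0.0495 with β4e (-0.0631 to 0.0553). Hsp90aa1 ranged from -0.0524 to 0.0407 with β4a (-0.0359 to 0.0135) and -0.0963 to 0.00927 with β4e. Hsph1 ranged from -0.329 to 0.0495 with β4a, -0.236 to 0.152 with β4b and -0.174 to 0.205 with β4e (-0.0460 to 0.0495). Dnajb1 ranged from -0.211 to 0.168 with β4e (-0.110 to 0.0151) and from -0.289 to 0.171 for β4a against β4b. Hspb1 ranged from -0.0153 to 0.139 with β4e, and Hspe1 from -0.0987 to 0.00148 for number 2 against 1. Of the differences between numbers, Hsph1 in number 3 against 1 fell short when array medians were set equal (0.188, limma adjusted p = 0.0611), and Hspe1 in number 3 against 1 after another quantile normalization (-0.206, adjusted p = 0.0555).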
